A study of Mus musculus with 8 samples.

Results

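The genes described here are 10 natural killer (NK) cell genes, 8 of them receptors or receptor subunits, with perforin (Prf1) and the granule protein Nkg7. They were chosen by gene name (Klrk1, Ncr1, Klrb1c, Klrc2, Klre1, Klrc1, Klrg1, Klrd1, Prf1 and Nkg7), with earlier results of the same comparison known, out of 54532 genes in the count table. Their values in that comparison are therefore a description: no test was made over these genes, and the adjusted p given for some of them, from the comparison across all genes, says only where the gene falls in it.

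RNA was sequenced from tumors of 4T1-FLuc, a mouse triple-negative breast cancer line that carries firefly luciferase, grown under the skin of 6-week-old female BALB/cJ mice and taken at the endpoint. The mice had an intact immune system; the titles call the tumors xenografts, although the line and the host are both mouse. Treated mice were injected into a vein with mAb-DXd/IMQ, each dose 16 mg/kg, in 5 courses that were 4 days apart. This conjugate is an antibody to CD276 that carries DXd, an inhibitor of topoisomerase I, and IMQ, an agonist of the innate sensors TLR7 and TLR8. Control mice are titled saline, and their treatment label reads PBS. Each group held 4 tumors with 1 library per tumor, and each tumor came from a different mouse. Total counts were 49398150, 45019927, 56388627 and 69582375 in saline tumors 1 to 4, and 51625237, 46196237, 42965317 and 34591912 in mAb-DXd/IMQ tumors 1 to 4. Levels are given as CPM, counts scaled to the size and composition of each library, and 3 counts in a tumor correspond to 0.0439 to 0.0843 CPM, a floor that covers counting error only.

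NK cells weigh signals from activating receptors, which recognise stress ligands on target cells, against signals from inhibitory receptors, which recognise MHC class I molecules and other markers of healthy cells. When activation prevails, granules are released whose perforin forms pores in the target membrane, through which granzymes enter and start cell death. Several of these genes are also transcribed in activated CD8 T cells, so a level in a whole tumor does not belong to a single cell type.

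Markers of NK cells were present at low levels in all 8 tumors. Of 6 NK markers, Ncr1, Klrb1c, Klre1 and Eomes had enough counts to be tested; the Ly49 genes Klra8 and Klra4 did not, with no count and with 7 counts over all tumors. BALB/c mice carry a Ly49 haplotype that differs from that of the reference strain. Summed CPM of the NK markers was 8.84, 9.16, 9.89 and 14.2 in saline tumors and 14, 15.1, 16.8 and 18.3 in mAb-DXd/IMQ tumors, so that the treated tumors were higher apart from an overlap with saline tumor 4. In edgeR, 0 of the 4 passed an adjusted p of 0.05 with an absolute log2 fold change above 0.58, against 1 at an unadjusted p under 0.05, 1 in DESeq2 and 0 in limma-voom. All 4 had a log2 fold change above 0. Ncr1, Klrb1c and Klre1 are themselves among the 10 genes, so the sum and these signs are not a measure separate from them. Klrk1, Klrd1, Klrc1, Klrc2 and Nkg7, whose fold changes were below 0, are not in the sum. The log2 fold change of Klrb1c was -0.22 without saline tumor 2, and that of Klre1 was -0.01 without mAb-DXd/IMQ tumor 4. In bulk tumor RNA, fewer cells of a type and less RNA per cell cannot be told apart, here and for every gene below.

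Of the 10 genes, Klrg1 was the only gene past both thresholds in edgeR, and it was higher in mAb-DXd/IMQ tumors. Among all 18511 genes tested, 1.06% passed in either direction, 0.546% as higher and 0.519% as lower; nothing is read from these shares, since the genes were chosen with this comparison known. No gene of the 10 passed as lower in edgeR, against 3 at an unadjusted p under 0.05, 2 in DESeq2 and 0 in limma-voom. An unadjusted p under 0.05 was found for 18.9% of all tested genes, 9.13% as higher and 9.79% as lower, while DESeq2 placed 2.37% as higher and 1.89% as lower and limma-voom 0.465% and 0.475%; nothing is read from these shares. Levels in the 4 tumors of a group lay wholly above those of the other group for Klrg1, and wholly below for Klrc1, Klrc2 and Nkg7. Groups without overlap were found for 5.97% of all tested genes as higher and 7.1% as lower, and nothing is read from these shares either. All 10 genes passed the filter on low counts, in 8 of 8 tumors for 9 genes and in 7 tumors for Klrb1c. Fold changes were above 0 for 5 genes and below 0 for the other 5, with a median log2 fold change of -0.12 beside 0.02 for all tested genes.

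**Figure D1:**
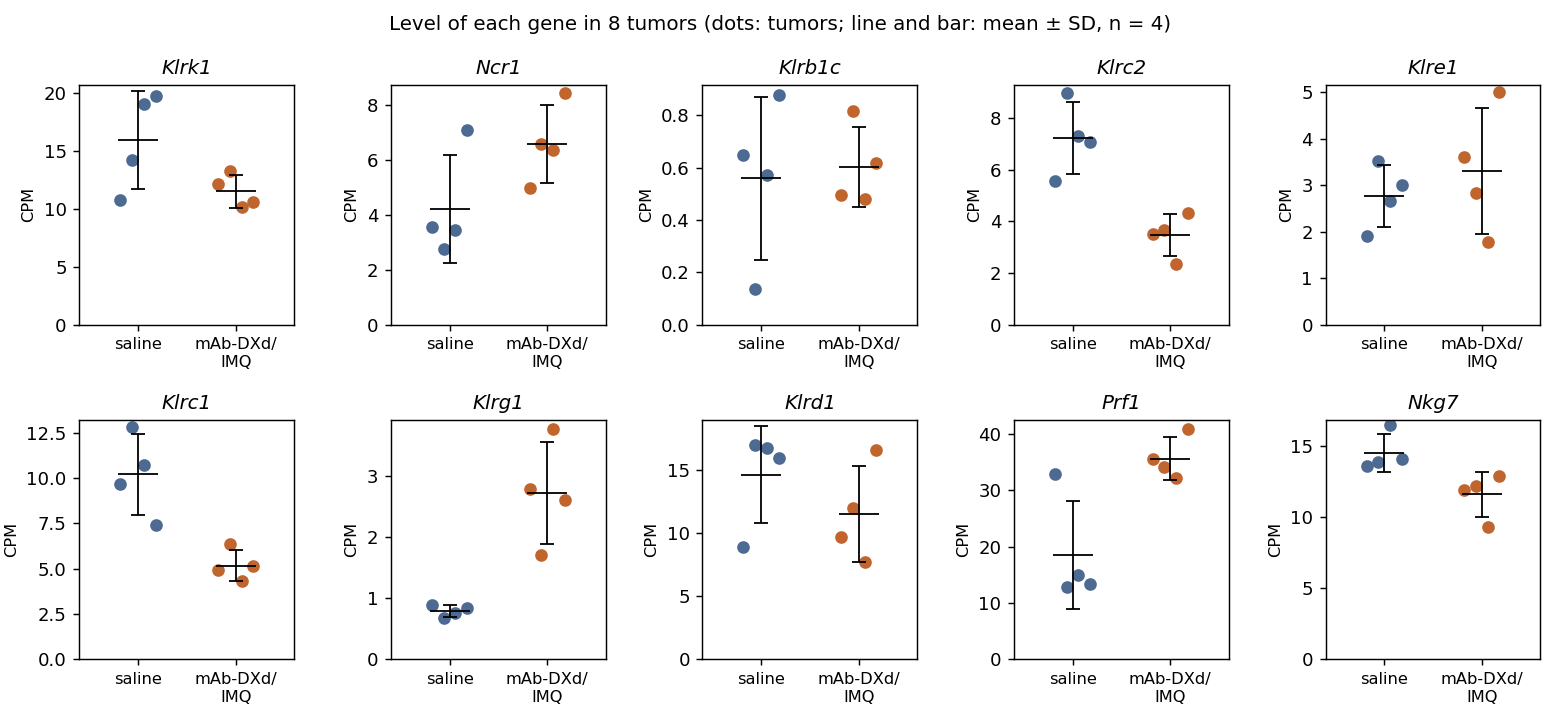
Level of each of the 10 genes in CPM (vertical axes from 0, each on its own scale) in 4 saline tumors (blue) and 4 mAb-DXd/IMQ tumors (orange); lines and bars are mean and SD. The Klrg1 dots of the groups are wholly apart, those of Klrc1, Klrc2 and Nkg7 are apart in the other direction, and saline tumor 1 stands with the treated tumors for Prf1.

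The plot of levels by tumor shows higher and lower means in treated tumors within the activating receptors, within the inhibitory receptors and within the effectors. Klrk1 encodes NKG2D, which binds stress-induced ligands on tumor cells and signals through the adaptors encoded by Hcst and Tyrobp. Its level was 10.7, 14.2, 19.0 and 19.7 CPM in saline tumors and 12.1, 13.2, 10.1 and 10.6 CPM in mAb-DXd/IMQ tumors. Saline tumors 2, 3 and 4 were above every treated tumor, and saline tumor 1 lay among them. The log2 fold change was -0.47 ± 0.20 (SE, n = 4 per group), and -0.62 to -0.34 over 19 other settings.

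Ncr1 encodes NKp46, an activating receptor found on NK cells and some other innate lymphoid cells. Its level was 3.55, 2.75, 3.46 and 7.11 CPM in saline tumors and 4.97, 6.60, 6.36 and 8.43 CPM in mAb-DXd/IMQ tumors. The groups overlapped through saline tumor 4, which was above 3 of the 4 treated tumors. Between the groups the log2 fold change was 0.64 ± 0.30 (SE, n = 4 per group), 1.02 ± 0.25 without saline tumor 4 and 0.48 to 1.02 over 19 other settings.

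Klrb1c, which in the reference strain encodes the activating receptor NK1.1, had the lowest level of the 10 genes in each group on the scale of CPM per kilobase. It measured 0.649, 0.135, 0.573 and 0.878 CPM in saline tumors and 0.495, 0.814, 0.481 and 0.618 CPM in mAb-DXd/IMQ tumors. Saline tumors gave both the lowest and the highest level, and the treated tumors lay between them. Gene coordinates are those of the reference strain, and the part of differences from BALB/cJ in this level was not tested. With 130 counts in saline and 106 in mAb-DXd/IMQ tumors, the log2 fold change of 0.09 ± 0.51 (SE, n = 4 per group) has the largest error of the 10 genes, and it was -0.22 without saline tumor 2 and -0.09 without mAb-DXd/IMQ tumor 2.

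Klrc2 encodes NKG2C, the activating partner of CD94, and the pair recognises the nonclassical MHC molecule Qa-1. Its level was 5.58, 8.96, 7.33 and 7.07 CPM in saline tumors and 3.51, 3.68, 2.36 and 4.33 CPM in mAb-DXd/IMQ tumors. Every treated tumor was below every saline tumor. Treated against saline, the log2 fold change was -1.06 ± 0.24 (SE, n = 4 per group), with an adjusted p of 0.0544 in edgeR, and the gene was past the thresholds in 4 of 19 other settings.

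Klre1 encodes a lectin-like receptor that pairs with the products of Klri1 or Klri2. It measured 1.91, 3.52, 2.67 and 3.0 CPM in saline tumors and 3.61, 2.83, 1.79 and 5.0 CPM in mAb-DXd/IMQ tumors. The lowest and the highest of the 8 levels were both in treated tumors, and the groups overlapped. It had a log2 fold change of 0.25 ± 0.33 (SE, n = 4 per group), which was -0.01 without mAb-DXd/IMQ tumor 4.

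Among the inhibitory receptors, Klrc1 encodes NKG2A, which also pairs with CD94 and binds Qa-1. Its level was 9.69, 12.8, 10.7 and 7.40 CPM in saline tumors and 4.91, 6.34, 4.35 and 5.14 CPM in mAb-DXd/IMQ tumors. No treated tumor reached the lowest saline tumor, saline tumor 4. On the log2 scale the fold change was -0.97 ± 0.21 (SE, n = 4 per group), with an adjusted p of 0.0518 in edgeR, and the gene was past the thresholds in 4 of 19 other settings.

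Klrg1 encodes an inhibitory receptor for cadherins that marks mature NK cells and short-lived effector T cells. It measured 0.892, 0.677, 0.752 and 0.848 CPM in saline tumors and 2.78, 1.71, 3.76 and 2.61 CPM in mAb-DXd/IMQ tumors. All 4 treated tumors were above all 4 saline tumors, and the saline tumors lay close together. This gave a log2 fold change of 1.77 ± 0.30 (SE, n = 4 per group), with an adjusted p of 0.0277 in edgeR, on 174 counts in saline and 480 in mAb-DXd/IMQ tumors. Klrg1 passed in 12 of 19 other settings, and over all 19 its log2 fold change was 1.58 to 1.94. Its adjusted p was 0.0608, 0.0841 and 0.101 without saline tumors 2, 3 and 4, 0.0579 and 0.0813 without mAb-DXd/IMQ tumors 3 and 4, and 0.0892 with the replicate number as a block, within a range of 7.79e-06 to 0.126 over all 19.

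Klrd1 encodes CD94, the subunit that NKG2A and NKG2C share. Its level was 8.92, 17.0, 16.7 and 15.9 CPM in saline tumors and 9.72, 12, 7.73 and 16.6 CPM in mAb-DXd/IMQ tumors. Saline tumor 1 was low and mAb-DXd/IMQ tumor 4 was high beside the rest of their groups, and the groups overlapped. The fold change on the log2 scale was -0.35 ± 0.26 (SE, n = 4 per group); it was -0.53 without saline tumor 1, -0.57 without mAb-DXd/IMQ tumor 4 and -0.20 without mAb-DXd/IMQ tumor 3, the last 2 being the ends of its range over 19 other settings. Per kilobase, the ratio of Klrc1 to Klrd1 was 0.476 ± 0.169 in saline and 0.307 ± 0.0733 in mAb-DXd/IMQ tumors (SD, n = 4), and the ratio of Klrc1 to Klrc2 was 4.16 ± 0.832 and 4.51 ± 0.875 (SD, n = 4). In each of these ratios the groups overlapped, and the size of each ratio depends on the gene lengths used.

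Prf1, the pore-forming effector, measured 32.9, 12.8, 14.9 and 13.4 CPM in saline tumors and 35.5, 34.1, 32.1 and 40.9 CPM in mAb-DXd/IMQ tumors. Saline tumor 1 was at the level of the treated tumors, above mAb-DXd/IMQ tumor 3, and the other saline tumors were lower than every treated tumor. The log2 fold change was 0.95 ± 0.27 (SE, n = 4 per group), with an adjusted p of 0.104 in edgeR. Without saline tumor 1 the log2 fold change was 1.37 and the adjusted p 0.00335, past the thresholds; over all 19 other settings the log2 fold change was 0.80 to 1.37 and the adjusted p 0.00335 to 0.26, and DESeq2 also placed Prf1 past the thresholds.

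Nkg7, a granule membrane protein needed for efficient degranulation, measured 13.6, 13.9, 16.5 and 14.1 CPM in saline tumors and 11.9, 12.2, 9.33 and 12.9 CPM in mAb-DXd/IMQ tumors. All treated tumors were below all saline tumors, by a small margin. Between the groups the log2 fold change was -0.33 ± 0.15 (SE, n = 4 per group), and -0.46 to -0.23 over 19 other settings. The ratio of Prf1 to Nkg7 per kilobase was 0.854, 0.326, 0.319 and 0.337 in saline tumors and 1.05, 0.984, 1.22 and 1.12 in mAb-DXd/IMQ tumors. It was higher in every treated tumor than in every saline tumor, with saline tumor 1 nearest to the treated tumors. For Klrg1 to Ncr1 the ratio per kilobase was 0.274, 0.268, 0.237 and 0.13 in saline tumors and 0.61, 0.283, 0.644 and 0.338 in mAb-DXd/IMQ tumors, with means of 0.227 ± 0.0668 and 0.469 ± 0.185 (SD, n = 4). The groups did not overlap but nearly touched, at 0.274 in saline tumor 1 and 0.283 in mAb-DXd/IMQ tumor 2.

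Levels can be compared between genes only per length, since the table gives Klrk1 a length of 7183 bases and Klrc2 5812, against 1984 for Klrc1 and 1281 for Klrd1. That length is fixed for each gene, and which of its transcripts the tumors expressed was not tested, so the order depends on it. In CPM, Klrc1 and Klrc2 had means of 10.2 and 7.23 in saline and 5.18 and 3.47 in mAb-DXd/IMQ tumors. In saline tumors Nkg7 had the highest level at 15.9 ± 1.44 CPM per kilobase (SD, n = 4), followed by Klrd1 at 11.4 ± 2.99, Prf1 at 7.17 ± 3.73, Klrc1 at 5.12 ± 1.13, Ncr1 at 2.74 ± 1.27, Klrk1 at 2.21 ± 0.592, Klrc2 at 1.24 ± 0.238, Klre1 at 0.794 ± 0.194, Klrg1 at 0.56 ± 0.0683 and Klrb1c at 0.189 ± 0.105. Prf1 and Klrc1, and Ncr1 and Klrk1, differed from each other by less than the larger of their SDs. Within tumors, Prf1 was above Klrc1 in 3 of 4 and Ncr1 above Klrk1 in 2 of 4. The order in saline tumors thus put the granule protein and CD94 first and Klrg1 next to last.

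In mAb-DXd/IMQ tumors the order began with Prf1 at 13.8 ± 1.45 CPM per kilobase (SD, n = 4) and Nkg7 at 12.7 ± 1.73, then Klrd1 at 8.99 ± 2.98, Ncr1 at 4.28 ± 0.924, Klrc1 at 2.61 ± 0.423, Klrg1 at 1.92 ± 0.592, Klrk1 at 1.6 ± 0.199, Klre1 at 0.947 ± 0.387, Klrc2 at 0.597 ± 0.141 and Klrb1c at 0.203 ± 0.0521. Prf1 and Nkg7, Klrg1 and Klrk1, and Klre1 and Klrc2 differed by less than the larger of their SDs. Within tumors, however, Klre1 was above Klrc2 in 4 of 4, and Prf1 was above Nkg7 and Klrg1 above Klrk1 in 3 of 4 each. The mean of Ncr1 was above that of Klrc1 here and below it in saline tumors, where Klrc1 was the higher in 3 of 4 tumors.

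**Figure D2:**
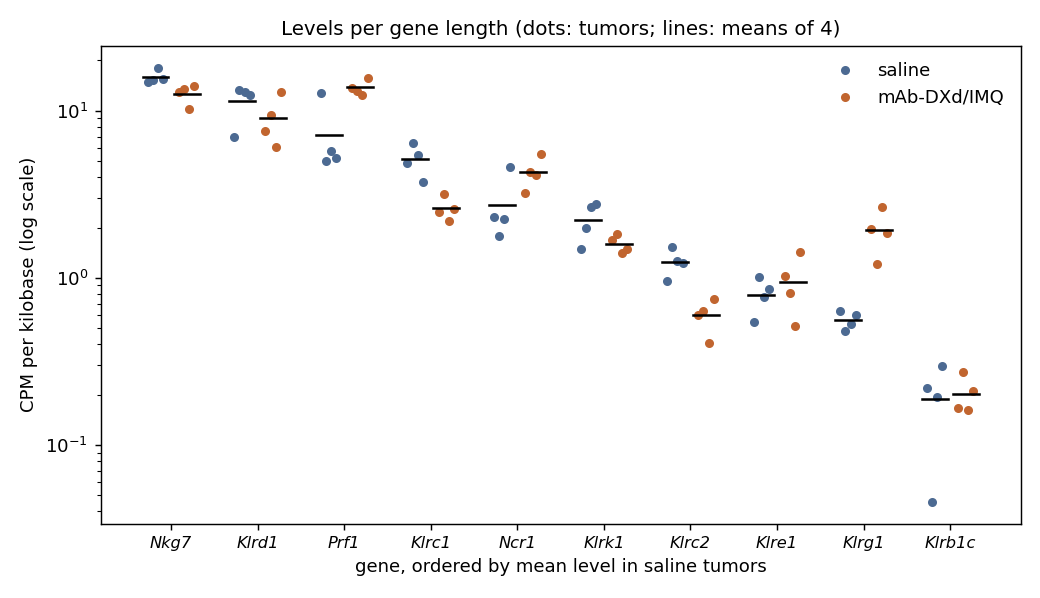
Level of each gene per length in CPM per kilobase (vertical log axis) with genes ordered by their mean in saline tumors; dots are 4 saline tumors (blue) and 4 mAb-DXd/IMQ tumors (orange), lines are means. Prf1, Ncr1 and Klrg1 have higher means in treated tumors, and Klrc1 and Klrc2 lower ones.

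The plot of levels per length spans from Nkg7 at 15.9 to Klrb1c at 0.189 CPM per kilobase in saline tumors, and its log axis makes equal ratios equal distances. The choice by name largely fixes position, since genes with Klr symbols belong for the most part to the NK gene complex. Of the 10 genes, the 7 with Klr symbols lie on chromosome 6, and Klre1, Klrd1, Klrk1, Klrc2 and Klrc1 fall within 101 kilobases that hold 6 genes in the table. The remaining gene there is Klrc3, named after its values were seen, a close relative of Klrc2.

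Along this stretch the log2 fold changes were 0.25 ± 0.33 for Klre1, -0.35 ± 0.26 for Klrd1, -0.47 ± 0.20 for Klrk1, -1.05 ± 0.55 for Klrc3, -1.06 ± 0.24 for Klrc2 and -0.97 ± 0.21 for Klrc1 (SE, n = 4 per group). The lowest values were those of the 3 neighbouring Klrc genes at 1 end. Klrc3, with few counts, was between -1.42 and -0.69 over 18 other settings. Klre1 and Klrd1 are on the plus strand and the other 4 on the minus strand. In GRCm38 coordinates Klre1 starts at chr6:129577905 and Klrc1 ends at chr6:129678973, and Klrg1 (chr6:122270596-122282882) and Klrb1c (chr6:128778485-128789215) lie outside the stretch. Ncr1 (chr7:4337724-4345164) and Nkg7 (chr7:43437073-43438249) are on chromosome 7 and Prf1 (chr10:61297833-61304680) is on chromosome 10.

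**Figure D3:**
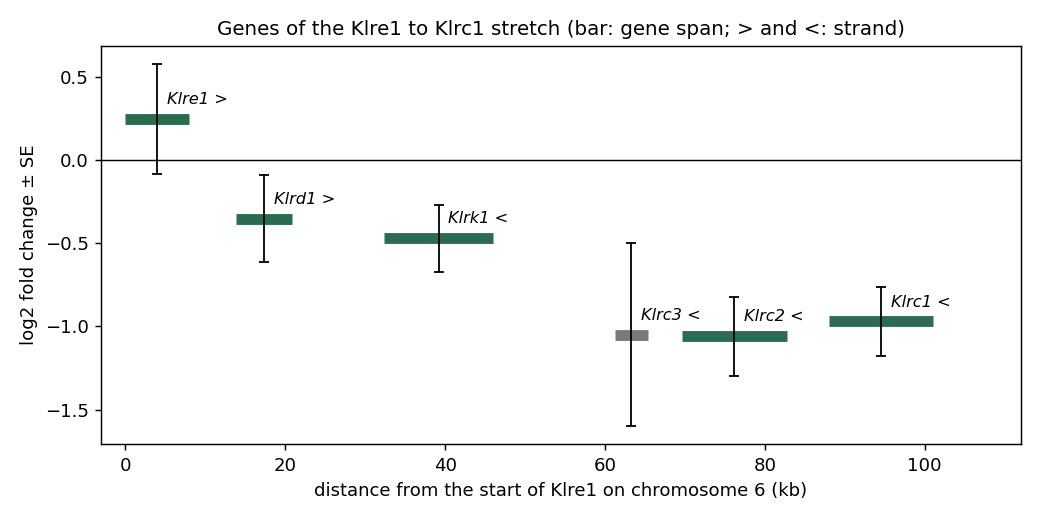
Log2 fold change (vertical axis, mAb-DXd/IMQ against saline, bars are SE, 4 tumors per group) against distance in kilobases from the start of Klre1; horizontal bars are gene spans, green for genes of the 10 and gray for Klrc3. Values run from 0.25 for Klre1 to -1.06 for Klrc2.

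The map of the stretch places the genes to scale, so that the Klrc genes are seen as direct neighbours. Close relatives can share sequence, which matters for counting reads. Of the windows of 100 bases along the transcripts of Klrc1, 14.6% (304 of 2080) also occur in Klrc2, and 7.09% of the Klrc2 windows occur in Klrc1 or Klrc3. For Klrc3 the share was 16%, with Klrc2, and for Klrb1c 10.8% (330 of 3053), 321 of them in the overlapping gene model Gm44511, which had 0 counts. No window of the other 7 genes occurred in another gene. How reads in shared windows were assigned was not tested.

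Promoters are shown for 4 genes, the neighbours Klrc1 and Klrc2, whose levels were lower in every treated tumor, and Ncr1 and Prf1, whose mean levels were higher in treated tumors. RefSeq promoters on GRCm38.p6, from 250 bases before to 50 after a start, were matched for 8 of the 10 genes, and no entry was matched for Klrd1 and Klrg1. The motifs searched on both strands were AGGTGT, a core of T-box factors such as Eomes and T-bet, TGTGGT, a core of RUNX factors, and AGGAAG, a core of ETS factors, none of which overlaps another in the printed windows; capitals mark every match. The windows are chr6:129678924-129679223 on the minus strand for Klrc1, chr6:129660547-129660846 on the minus strand for Klrc2, chr7:4337465-4337764 on the plus strand for Ncr1 and chr10:61297586-61297885 on the plus strand for Prf1, each read 5′ to 3′, using the first of 2 starts for Klrc2 and Ncr1.
Klrc1: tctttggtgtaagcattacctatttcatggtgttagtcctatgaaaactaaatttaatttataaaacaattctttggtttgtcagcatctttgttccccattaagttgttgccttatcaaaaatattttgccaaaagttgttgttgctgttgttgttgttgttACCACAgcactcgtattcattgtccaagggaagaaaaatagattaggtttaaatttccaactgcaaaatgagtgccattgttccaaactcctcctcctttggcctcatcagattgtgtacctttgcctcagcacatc
Klrc2: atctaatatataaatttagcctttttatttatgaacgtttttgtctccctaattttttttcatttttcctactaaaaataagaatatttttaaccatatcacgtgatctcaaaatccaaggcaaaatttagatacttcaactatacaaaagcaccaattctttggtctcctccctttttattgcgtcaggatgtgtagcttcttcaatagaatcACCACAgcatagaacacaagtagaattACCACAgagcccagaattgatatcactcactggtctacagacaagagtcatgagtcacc
Ncr1: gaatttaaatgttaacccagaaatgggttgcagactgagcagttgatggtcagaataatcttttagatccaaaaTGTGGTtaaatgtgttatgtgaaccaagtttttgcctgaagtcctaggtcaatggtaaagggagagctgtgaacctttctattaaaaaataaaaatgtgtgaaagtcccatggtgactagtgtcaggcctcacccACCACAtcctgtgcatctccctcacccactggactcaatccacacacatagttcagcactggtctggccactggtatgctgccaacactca
Prf1: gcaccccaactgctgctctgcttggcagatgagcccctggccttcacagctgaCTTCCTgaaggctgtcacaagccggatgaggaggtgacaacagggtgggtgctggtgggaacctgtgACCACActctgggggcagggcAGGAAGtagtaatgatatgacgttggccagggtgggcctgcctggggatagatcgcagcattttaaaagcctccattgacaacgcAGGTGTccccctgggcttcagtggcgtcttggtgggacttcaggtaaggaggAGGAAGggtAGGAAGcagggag

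Klrc1 held 1 RUNX match, Klrc2 held 2 and Ncr1 held 2, and none of these windows held a T-box or ETS match. Prf1 held 1 T-box, 1 RUNX and 4 ETS matches. Over the 11 promoters of the 8 matched genes, RUNX letters were found for 8 genes, ETS letters for 4 and T-box letters for 2, Prf1 and Nkg7. Of 32851 promoters, those of chromosome 18 left out, 16.8% held the RUNX letters, 35.4% the ETS letters and 13.7% the T-box letters. These shares are per promoter, while the counts of genes take a match at any start of the gene. A match is a description of the sequence and not a binding site, and a missing match says only that the letters are not in the window. Klrc1 and Klrc2 promoters aligned with 50.3% identity and a longest shared run of 12 bases. Over all 28 pairs of the 8 genes identity was 44.3% to 53.9%, and the longest shared run in the other pairs was 6 to 11 bases.

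The companion genes below come from 9 lists of other NK pathway genes, with 134 tested of 156 listed. In edgeR, 6 of these 134 rose and 3 fell past both thresholds, and the median log2 fold change was -0.15. Over all 18511 tested genes, 101 rose and 96 fell, 9743 had a fold change above 0 and 8768 below 0, and the median was 0.02. At an unadjusted p under 0.05 there were 1690 higher and 1813 lower among all tested genes, beside 438 and 349 past the thresholds in DESeq2 and 86 and 88 in limma-voom, and the counts of each list and of each set of markers below stand against these numbers. The genes given below as highest in a list, or as the most abundant marker, are ranked by their mean level per length over all 8 tumors, and the order within a group can differ.

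**Figure D4:**
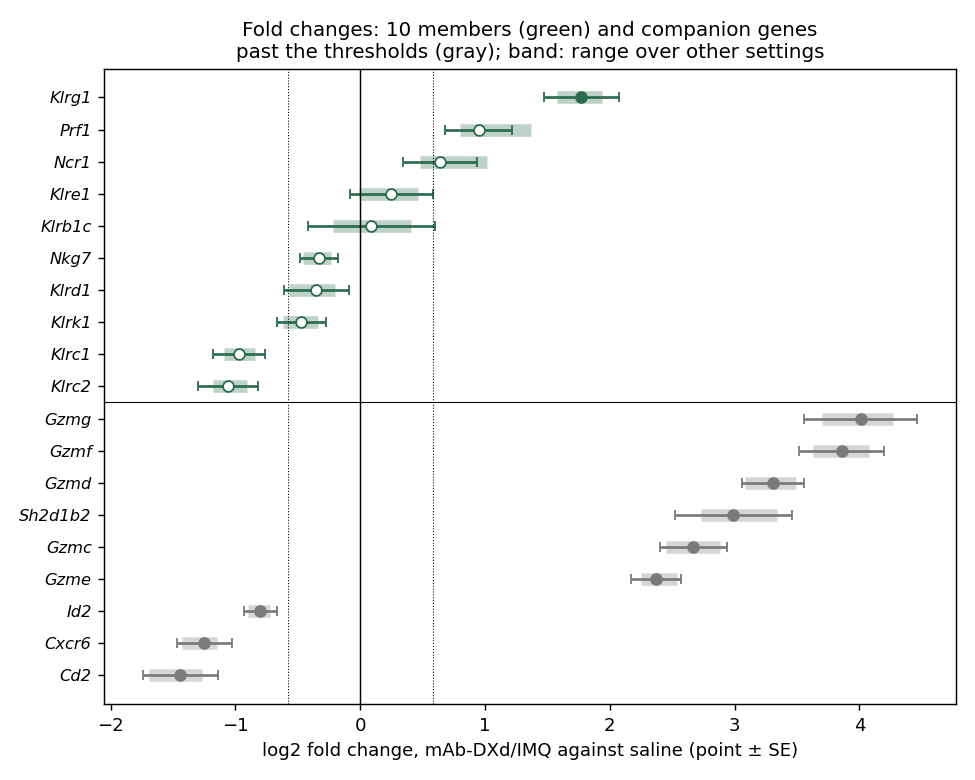
Log2 fold change of mAb-DXd/IMQ against saline (horizontal axis; points with SE, 4 tumors per group) for the 10 genes (green) and the 9 companion genes past the thresholds (gray); filled points passed both thresholds, bands give the range over other settings and dotted lines mark 0.58 in each direction. Klrg1 is the only filled point among the 10, and the 5 granzymes Gzmc to Gzmg lie from 2.37 to 4.01.

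The plot of fold changes sets the 10 genes, between -1.06 and 1.77, beside the companion genes that passed. Granule contents and death ligands had 17 tested genes and a median of 0.44. In edgeR 5 rose and 0 fell, against 7 higher and 1 lower at an unadjusted p under 0.05, and 5 higher and 0 lower in DESeq2 and in limma-voom. Granzymes are the proteases that perforin delivers, and the 5 that rose belong to the granzyme cluster on chromosome 14. This cluster also holds Gzmb, which did not pass, and Gzmn, which had too few counts to be tested. The log2 fold changes of the 5 that rose were 4.01 ± 0.45 for Gzmg, 3.86 ± 0.34 for Gzmf, 3.31 ± 0.25 for Gzmd, 2.67 ± 0.27 for Gzmc and 2.37 ± 0.20 for Gzme (SE, n = 4 per group), and each passed in all 19 other settings.

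Gzmg measured 8.39, 8.91, 1.68 and 4.89 CPM in saline tumors and 107, 76.0, 68.1 and 133 CPM in mAb-DXd/IMQ tumors. Unlike for Prf1, every saline tumor was far below every treated tumor for this gene. Gzma and Gzmb, the granzymes most used as markers of cytotoxic cells and named after their values were seen, had log2 fold changes of 0.87 ± 0.39 and 0.52 ± 0.35 (SE, n = 4 per group) and did not pass. Over 19 other settings these were 0.47 to 1.2 for Gzma, lowest without mAb-DXd/IMQ tumor 4, and 0.27 to 0.94 for Gzmb, lowest without saline tumor 2 and highest without saline tumor 1. Of this list, Lamp1, Ctsc and Srgn had the highest levels per length over all 8 tumors, although Gzmd, Gzmc and Gzmg were above Ctsc and Srgn in treated tumors. Lamp1, Ctsc and Srgn measured 204 ± 24.3, 126 ± 37.2 and 80.5 ± 8.43 CPM per kilobase in saline tumors and 183 ± 28.1, 102 ± 11.9 and 68.1 ± 13.5 in mAb-DXd/IMQ tumors (SD, n = 4); these lysosomal and granule genes are transcribed in many cell types.

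Activating receptors and adaptors had 22 of 25 tested genes with a fold change below 0 and a median of -0.40. In edgeR 1 rose and 1 fell, against 1 higher and 10 lower at an unadjusted p under 0.05, 1 higher and 4 lower in DESeq2 and 1 of each in limma-voom. The adaptor Sh2d1b2, which serves receptors of the SLAM family, rose, with a log2 fold change of 2.99 ± 0.47 (SE, n = 4 per group) on 33 counts in saline and 219 in mAb-DXd/IMQ tumors, and 7% of its windows are shared with Sh2d1b1. The adhesion receptor Cd2 fell, with a log2 fold change of -1.44 ± 0.30 (SE, n = 4 per group). Tyrobp, Plcg2 and Fcgr3, the genes of this list with the highest levels per length over all 8 tumors, measured 168 ± 59.6, 101 ± 24 and 88.0 ± 29.2 CPM per kilobase in saline and 147 ± 19.7, 67.2 ± 17.5 and 63.5 ± 6.63 in mAb-DXd/IMQ tumors (SD, n = 4), and myeloid cells also transcribe them.

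The adaptors of the members themselves were chosen after their values were seen. Hcst, the adaptor of NKG2D, had a log2 fold change of -0.11 ± 0.23, and Cd247, the zeta chain that serves NKp46 and the T cell receptor, one of -1.34 ± 0.31 with an adjusted p of 0.0574 in edgeR (SE, n = 4 per group). Over 19 other settings Hcst was between -0.24 and -0.03 and Cd247 between -1.46 and -1.14, past the thresholds in 2 of them. Every treated tumor was below every saline tumor for Cd247, while the groups overlapped for Hcst. The adaptors Fcer1g and Tyrobp, of the same list, had log2 fold changes of -0.11 ± 0.16 and -0.19 ± 0.23 (SE, n = 4 per group). For both, the groups overlapped.

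Other killer lectin receptors had 13 of 22 listed genes tested and a median of 0.03, which was -0.08 after removal of the length trend. In edgeR 0 passed, against 2 higher and 1 lower at an unadjusted p under 0.05, 1 lower in DESeq2 and 0 in limma-voom. No tumor had a count for Klra6, Klra8, Klra10 and Klrb1. Klra2, Klrb1b and Klri1 had the highest levels per length over all 8 tumors, at 21.1 ± 8.63, 2.87 ± 0.517 and 1.99 ± 0.751 CPM per kilobase in saline and 14.7 ± 3.24, 1.19 ± 0.456 and 1.91 ± 0.593 in mAb-DXd/IMQ tumors (SD, n = 4). Klrb1b, an inhibitory relative of Klrb1c, measured 6.85, 7.70, 5.0 and 6.03 CPM in saline and 2.81, 4.03, 2.05 and 1.74 CPM in mAb-DXd/IMQ tumors, lower in every treated tumor. Its log2 fold change was -1.26 ± 0.28 (SE, n = 4 per group) with an adjusted p of 0.0544 in edgeR, and it passed in 4 of 19 other settings. For Klri2, a partner of Klre1 named after its values were seen, the log2 fold change was 0.63 ± 0.37 (SE, n = 4 per group), and 0.38 to 0.94 over 19 other settings.

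Inhibitory receptors and phosphatases, the list that holds the checkpoint receptors, had 12 tested genes and a median of -0.15; in edgeR 0 passed, against 2 at an unadjusted p under 0.05, 1 in DESeq2 and 0 in limma-voom. Lag3, an inhibitory receptor of T and NK cells named after its values were seen, measured 12.6, 12.8, 14.2 and 10.3 CPM in saline and 6.02, 8.42, 7.58 and 6.10 CPM in mAb-DXd/IMQ tumors. All treated tumors were below all saline tumors, with a log2 fold change of -0.83 ± 0.18 (SE, n = 4 per group) and an adjusted p of 0.0517 in edgeR, and it passed in 6 of 19 other settings. Ptpn6, Ptpn11 and Lilrb4a had the highest levels per length, at 32.6 ± 4.73, 23.8 ± 1.63 and 14 ± 2.98 CPM per kilobase in saline and 30.3 ± 4.13, 21.4 ± 2.54 and 13 ± 5.75 in mAb-DXd/IMQ tumors (SD, n = 4).

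Ligands of these receptors had 16 of 24 listed genes tested, 12 with a fold change above 0, and a median of 0.16; in edgeR 0 passed, against 3 at an unadjusted p under 0.05, 0 in DESeq2 and 0 in limma-voom. The class I genes H2-D1 and H2-K1, ligands of Ly49 receptors, and H2-T23, which encodes Qa-1, had the highest levels per length, at 907 ± 147, 341 ± 67.0 and 202 ± 72.5 CPM per kilobase in saline and 1053 ± 180, 410 ± 36.0 and 223 ± 57.7 in mAb-DXd/IMQ tumors (SD, n = 4). In each of these the groups overlapped. Ligands of NKG2D were named after their values were seen. Among them Ulbp1 had a level of 6.24 ± 0.679 CPM per kilobase in saline and 8.14 ± 1.61 in mAb-DXd/IMQ tumors, while Raet1d and Raet1e were at 0.549 ± 0.0923 and 0.758 ± 0.232 in saline and 0.53 ± 0.0985 and 0.799 ± 0.266 in mAb-DXd/IMQ tumors (SD, n = 4). H60b was at 1.21 ± 0.397 in saline and 1.15 ± 0.0472 in mAb-DXd/IMQ tumors (SD, n = 4). H60c had too few counts to be tested, and Raet1a, Raet1b and Raet1c were not in the table. The part of strain differences in these levels was not tested. The log2 fold change of Ulbp1 was 0.38 ± 0.15 (SE, n = 4 per group). For Cdh1, the E-cadherin that Klrg1 binds, also named after its values were seen, the level was 81.8 ± 31.5 CPM per kilobase in saline and 83.1 ± 11.4 in mAb-DXd/IMQ tumors (SD, n = 4).

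Granule exocytosis had 12 tested genes, 10 with a fold change below 0, and a median of -0.22. In edgeR 0 passed, against 1 higher and 4 lower at an unadjusted p under 0.05, 1 higher in DESeq2 and 0 in limma-voom. Vamp8, Stxbp2 and Vamp7, which work in granule fusion, had the highest levels per length, at 39.1 ± 2.39, 37.1 ± 3.01 and 31.0 ± 3.25 CPM per kilobase in saline and 34.5 ± 7.57, 35.3 ± 2.14 and 24.1 ± 4.57 in mAb-DXd/IMQ tumors (SD, n = 4). Unc13d, the priming factor Munc13-4, named after its values were seen, had a log2 fold change of -0.38 ± 0.15 (SE, n = 4 per group), and of -0.45 to -0.23 over 19 other settings.

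**Figure D5:**
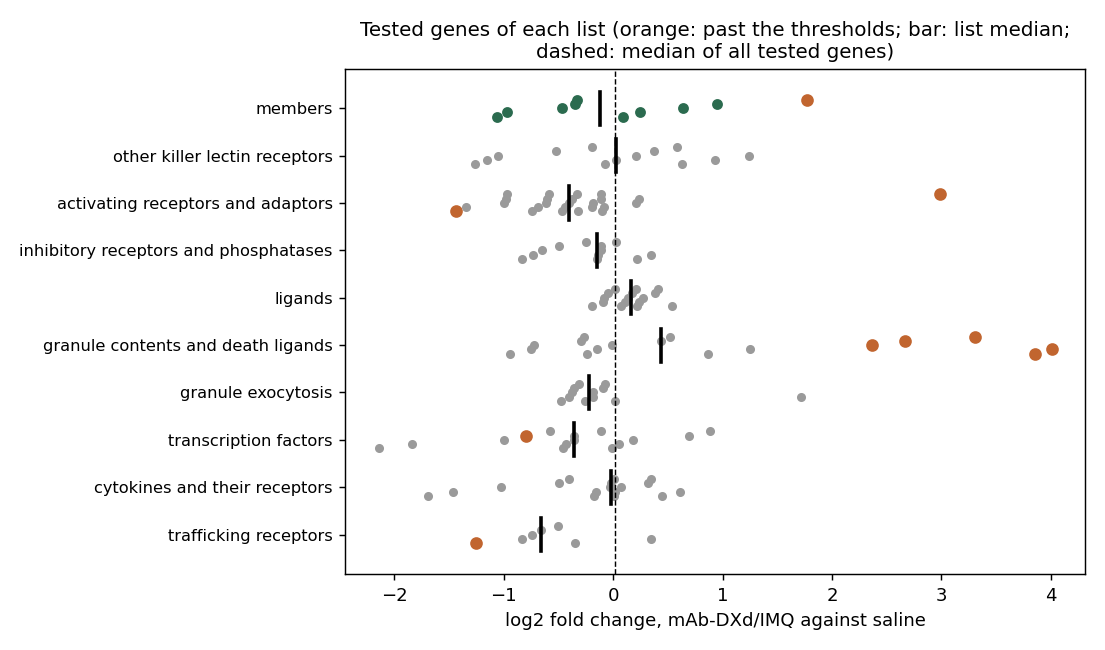
Log2 fold change (horizontal axis, mAb-DXd/IMQ against saline) of each tested gene of the 10 and of 9 companion lists; orange dots passed both thresholds, black bars are list medians and the dashed line is the median of all tested genes, 0.02. Orange dots stand at the right for 5 granzymes, and the medians run from -0.66 for trafficking receptors to 0.44 for granule contents.

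Transcription factors had 15 tested genes, 11 with a fold change below 0, and a median of -0.36. In edgeR 1 fell and 0 rose, against 6 lower and 2 higher at an unadjusted p under 0.05, 3 lower and 2 higher in DESeq2, and 1 lower and 0 higher in limma-voom. Id2, which NK and other innate lymphoid cells need, fell with a log2 fold change of -0.80 ± 0.13 (SE, n = 4 per group) and had a level of 37.1 ± 5.18 CPM per kilobase in saline and 21.3 ± 2.38 in mAb-DXd/IMQ tumors (SD, n = 4). Gata3 and Nfil3 followed at 21.9 ± 1.4 and 22.3 ± 2.78 in saline and 20.3 ± 1.74 and 16.5 ± 2.70 in mAb-DXd/IMQ tumors. The T-box factors of NK cells were named after their values were seen. Eomes measured 2.74, 2.75, 3.14 and 3.25 CPM in saline and 4.85, 4.86, 8.15 and 4.22 CPM in mAb-DXd/IMQ tumors, higher in every treated tumor, with a log2 fold change of 0.89 ± 0.25 and an adjusted p of 0.0885 in edgeR, and it passed in 1 of 19 other settings. Tbx21, which encodes T-bet, had a log2 fold change of -0.36 ± 0.37 (SE, n = 4 per group), and of -0.60 to -0.19 over 19 other settings.

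Cytokines and their receptors had 17 tested genes and a median of -0.02, which was 0.03 with upper-quartile scaling. In edgeR 0 passed, against 2 higher and 4 lower at an unadjusted p under 0.05, 1 lower in DESeq2 and 0 in limma-voom. Il12rb1, Ccl5 and Il18 had the highest levels per length, at 26.5 ± 10.6, 18.9 ± 3.65 and 13.5 ± 1.96 CPM per kilobase in saline and 26.9 ± 1.57, 28.8 ± 7.66 and 13.2 ± 2.62 in mAb-DXd/IMQ tumors (SD, n = 4). Il15, the cytokine that keeps NK cells alive, and Il2rb, a chain of its receptor, were named after their values were seen. The log2 fold change of Il15 was 0.35 ± 0.25 (SE, n = 4 per group), or 0.16 to 0.63 over 19 other settings, and the level of Il2rb was 10.5 ± 2.18 CPM per kilobase in saline and 10.5 ± 0.314 in mAb-DXd/IMQ tumors (SD, n = 4).

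Trafficking receptors had 7 tested genes, 6 with a fold change below 0, and a median of -0.66. Cxcr6, a chemokine receptor of tissue-resident NK and T cells, fell with a log2 fold change of -1.25 ± 0.22 (SE, n = 4 per group), and 0 rose in edgeR; the counts were 3 lower and 0 higher at an unadjusted p under 0.05, 2 lower and 0 higher in DESeq2 and 1 lower and 0 higher in limma-voom. Cx3cr1 and Ccr2, which macrophages and monocytes also transcribe, had levels of 29.4 ± 22.6 and 22 ± 13.1 CPM per kilobase in saline and 18.6 ± 5.78 and 13.2 ± 1.57 in mAb-DXd/IMQ tumors (SD, n = 4).

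Of the 9 companion genes past the thresholds, the 4 outside the granzymes lost their calls in some settings. Sh2d1b2 was past the thresholds in 13 of 18 other settings, Id2 in 14 of 19, Cxcr6 in 11 of 19 and Cd2 in 9 of 19. Without saline tumor 3, saline tumor 4 or mAb-DXd/IMQ tumor 4, none of these 4 genes passed, and the 5 granzymes did.

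Markers of other cell types also differed between the groups. Markers of T cells, which also transcribe several of the 10 genes, had a summed CPM of 73.1, 113, 106 and 96.6 in saline and 59.0, 50.2, 28.8 and 44.8 in mAb-DXd/IMQ tumors. All treated tumors were below all saline tumors, all 10 T cell markers had a fold change below 0 and 2 fell past the thresholds in edgeR, Cd4 and Cd8a; 9 were lower at an unadjusted p under 0.05, 6 in DESeq2 and 3 in limma-voom. Among all tested genes, 9.79% were lower at an unadjusted p under 0.05, and nothing is read from this share. Cd8a was the most abundant T cell marker per length, at 9.50 ± 1.27 CPM per kilobase in saline and 4.07 ± 0.867 in mAb-DXd/IMQ tumors (SD, n = 4), and no T cell marker was at 0. Mean levels of Klrk1, Klrd1, Klrc1, Klrc2 and Nkg7 were likewise lower in treated tumors, and those of Klrg1, Ncr1 and Prf1 were higher. Their part in the result was not tested.

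Neutrophil markers had a summed CPM of 225, 84.9, 92.4 and 125 in saline and 33.0, 49.4, 51.4 and 67.2 in mAb-DXd/IMQ tumors, without overlap, and 1 of 5 tested fell in edgeR, Csf3r, against 4 lower at an unadjusted p under 0.05, 3 in DESeq2 and 1 in limma-voom. Their most abundant gene was S100a9, at 104 ± 77.1 and 29.7 ± 9.11 CPM per kilobase (SD, n = 4). Mast cell markers had a summed CPM of 166, 28.8, 125 and 159 in saline and 17.5, 42.6, 16.4 and 36.7 in mAb-DXd/IMQ tumors, with saline tumor 2 among the treated tumors, and 1 of 6 fell in edgeR, Cpa3, against 6 lower at an unadjusted p under 0.05, 3 in DESeq2 and 0 in limma-voom. Tpsb2 was their most abundant gene, at 43.9 ± 27.1 and 7.59 ± 5.24 CPM per kilobase (SD, n = 4). No neutrophil or mast cell marker was at 0 in all tumors, although Ly6g had too few counts to be tested. Cd4, Csf3r and Cpa3 were named after their values were seen. Cd4 and Cd8a passed in 14 of 19 other settings each, Csf3r and Cpa3 in 9 of 19 each, and none of these 4 genes passed without saline tumor 3, saline tumor 4 or mAb-DXd/IMQ tumor 4, or with the replicate block. The part of these markers in the result was not tested.

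The other marker lists had 0 genes past the thresholds in edgeR and groups that overlapped in summed CPM. In saline and mAb-DXd/IMQ tumors the sums (SD, n = 4) were 11.2 ± 3.14 and 9.21 ± 0.535 for gamma-delta T cells, most abundant gene Tcrg-C2, and 42.5 ± 8.13 and 31.8 ± 7.93 for regulatory T cells, most abundant gene Ikzf2. For group 2 innate lymphoid cells, with Areg the most abundant gene, they were 33.2 ± 14.8 and 17.1 ± 2.94, and for B cells, with Cd79b the most abundant over all 8 tumors, 2.01 ± 0.844 and 1.68 ± 0.429. Lists of the myeloid lineages gave 1415 ± 653 and 1083 ± 184 for macrophages and monocytes, led by C1qa, and 11.7 ± 6.34 and 5.0 ± 0.74 for dendritic cells, led over all 8 tumors by Clec9a. The lymphoid and myeloid sums had lower means in treated tumors, with wide spread among saline tumors.

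Epithelial tumor cells, led by Krt18, summed to 1809 ± 213 and 2146 ± 549 CPM, fibroblasts, led by Col1a1, to 3811 ± 1567 and 3649 ± 1455, endothelial cells, led by Cdh5, to 137 ± 46.5 and 175 ± 17.3, and skeletal muscle, led by Acta1, to 231 ± 157 and 185 ± 99.2 (SD, n = 4). Ptprc, which encodes the leukocyte antigen CD45, measured 155 ± 22.9 CPM in saline and 140 ± 35.5 in mAb-DXd/IMQ tumors (SD, n = 4), with a log2 fold change of -0.16 ± 0.17 (SE, n = 4 per group), and of -0.35 to -0.04 over 19 other settings. At an unadjusted p under 0.05, the numbers of genes were 0 for gamma-delta T cells, 1 for regulatory T cells, 2 for group 2 innate lymphoid cells, 2 for B cells, 2 for macrophages and monocytes, 4 for dendritic cells, 0 for epithelial tumor cells, 1 for fibroblasts, 1 for endothelial cells, 0 for skeletal muscle and 0 for Ptprc. DESeq2 placed 1, 1, 2, 1 and 1 genes past the thresholds for regulatory T cells, group 2 innate lymphoid cells, B cells, macrophages and monocytes and endothelial cells and 0 in the rest of these lists, and limma-voom placed 0 in every one of them.

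Variation among tumors of a group was also compared between genes, as deviations of log2 CPM from the group means over the 8 tumors, which removes the difference between the groups. Among 14645 genes with a mean of at least 1 CPM, those with the highest Pearson r with Klrg1 were Gm15473 (0.955), Ccnyl1 (0.952), Mrpl37 (0.939), Otub2 (0.937) and 9230116N13Rik (0.936). With Ncr1 they were Gm16907 (0.976), 9430034N14Rik (0.953), Fosb (0.951), 4930578I06Rik (0.942) and Wnt6 (0.941), and with Prf1 Lss (0.978), Zfp143 (0.962), Ly75 (0.959), Flt1 (0.958) and Evc (0.958). These are the highest of many values over 8 tumors that share their libraries, given as a description. Genes most like the other 7 were not searched for. The r of Klrg1, Ncr1 and Prf1 with the rest of the 10, Klrb1c left out for its low level, was between -0.753, for Klrg1 with Klrc1, and 0.36, for Ncr1 with Klrk1.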

How the data were processed

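Bulk RNA from 8 tumors was compared, 4 per group. The file deposited by the authors holds whole read counts for every gene and library, not normalized, and gives each gene a length. The submitters' processing notes name HISAT2, HISAT and TopHat2 and the build mm39. The counting program and the strandedness are not given in the sources used here. Gene coordinates matched GRCm38: of 54495 identifiers shared with GENCODE M21, 53585 had the same start and end, among them those of all 10 genes described. Labels give no sequencing batch, so none could be compared. Within each group, no pair of libraries was a duplicate (chi-square per degree of freedom 33.7 to 160).

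Genes were filtered with filterByExpr (minimum count 10, minimum total 15), which kept 18511, and scaled by TMM (factors 0.939 to 1.07). The groups were compared in edgeR by its quasi-likelihood test, with group as the only term. A gene passed at a Benjamini-Hochberg adjusted p under 0.05 over all tested genes and an absolute log2 fold change above 0.58. Standard errors are approximate, being computed back from F. The common biological coefficient of variation was 0.273. Log2 CPM used a prior count of 2. Software was edgeR 4.0.16, DESeq2 1.42.0 and limma 3.58.1 in R 4.3.3, with pandas 2.3.3, Biopython 1.88 and matplotlib 3.10.9 in Python 3.11.15. The steps were tested on simulated data.

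The 10 genes, the 9 companion lists and the 15 marker lists were chosen with earlier results of these data known. Of the 156 listed companion symbols, 6 (Klrh1, Cd244, Raet1a, Raet1b, Raet1c and H2-L) were not in the table. Named were the 10 genes; of each companion list the genes past the thresholds, at most 6, and up to 3 of the tested genes with the highest levels per length; the most abundant gene of each marker list; and for Klrg1, Ncr1 and Prf1 the 5 genes with the most similar deviations. Other genes are said to have been named after their values were seen.

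Alternatives were DESeq2 size factors, upper-quartile factors, no filter on low counts, at least 1 CPM in 4 tumors, the DESeq2 Wald test, limma-voom, the newer quasi-likelihood fit of edgeR, the adjusted p alone, the replicate number as a block, an offset that removes the trend with gene length (spline with 5 degrees of freedom), block and offset together, and leaving out each tumor in turn. Protein sequences and reads were not used.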

Additional observations from a re-analysis of the deposited data

Results flagged for a closer look

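In each group of 4 tumors, the highest and the lowest tumor were checked for a gap to the nearest other tumor that passed the critical value of Dixon's test, as a share of the range of the group. Over 214 groups, for the named genes and the summed levels of the marker lists, 12 held such a tumor, where about 1 in 20, or 10.7, are expected by chance. Some of the genes were named for deviations similar to those of Klrg1, Ncr1 or Prf1. The groups are therefore not independent, and nothing is read from the expected number. Among the 10 NK genes there were 3 such groups. Klrd1 in saline tumor 1 was low, at 8.92 CPM against 15.9 to 17.0 in the others, a gap of 0.867 of the range. Prf1 in saline tumor 1 was high, at 32.9 CPM against 12.8 to 14.9, a gap of 0.898. Nkg7 in saline tumor 3 was high, at 16.5 CPM against 13.6 to 14.1, a gap of 0.84.

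Among other genes in saline tumors, saline tumor 1 was high for Zfp143 (24.1 CPM against 20.3 to 20.7, gap 0.878), Flt1 (104 CPM against 69.4 to 72.1, gap 0.922) and Evc (21.6 CPM against 15.9 to 16.9, gap 0.832), which were named for their similarity to Prf1. Saline tumor 4 was high for 4930578I06Rik, at 2.37 CPM against 1.42 to 1.54, a gap of 0.874. In mAb-DXd/IMQ tumors, Vamp7 was high in tumor 1, at 78.3 CPM against 53.9 to 56.6, a gap of 0.892, and Csf3r was low in the same tumor, at 15 CPM against 21.8 to 22.9, a gap of 0.87. Tumor 3 was high for Ptprc, at 193 CPM against 119 to 125, a gap of 0.91, and for Eomes, at 8.15 CPM against 4.22 to 4.86, a gap of 0.836. Gzmb was high in tumor 4, at 66.3 CPM against 40.0 to 44.4, a gap of 0.832.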

How the results depend on the processing

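Of all tested genes, 101 passed as higher and 96 as lower in mAb-DXd/IMQ tumors. These counts were 167 and 191 with no filter on low counts (31459 genes tested), 438 and 349 with the DESeq2 Wald test, 153 and 138 with the newer quasi-likelihood fit, and 63 and 59 with the gene length offset. Upper-quartile factors gave 145 and 73, with a median log2 fold change over all genes of 0.069 against 0.022. Across genes, fold change and length had a Spearman's rho of -0.212, and of -0.034 with the offset. Of the 10 NK genes, 1 passed as higher and 0 as lower; DESeq2 gave 2 and 2, and 2 passed as lower with no filter, with at least 1 CPM in 4 tumors and with the newer fit, in each case Klrc1 and Klrc2. Klrb1c had no value with the filter at 1 CPM. Of the companion genes, 3 passed as lower, against 7 with no filter, 5 at 1 CPM, 12 with DESeq2 and 7 with the newer fit. For all of these the cause was not tested.

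With the replicate block, 10 genes passed as higher and 4 as lower, with and without the length offset. Of the 10 NK genes 0 passed as higher with the block, with and without the offset, and companion genes past as lower were 0 with the block and 1 with block and offset. Labels do not say whether replicate numbers pair tumors. Across genes, same-numbered saline and mAb-DXd/IMQ tumors had r of -0.17, -0.0546, 0.0794 and -0.0672 for their deviations from the group means. For pairs with unlike numbers r was -0.103 to 0.181. With so few tumors, these values cannot show that the numbers carry no pairing.

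Leaving out each tumor in turn gave 9 to 90 genes higher and 1 to 118 lower. Without saline tumor 3 they were 9 and 1, without saline tumor 4 they were 9 and 2, and without mAb-DXd/IMQ tumor 4 they were 10 and 2. Without saline tumor 2 they were 49 and 62, without mAb-DXd/IMQ tumor 2 they were 38 and 38, and without mAb-DXd/IMQ tumor 3 they were 52 and 36. NK genes past as higher numbered 0 to 2: 0 without saline tumors 2, 3 or 4 or mAb-DXd/IMQ tumors 3 or 4, and 2, Klrg1 and Prf1, without saline tumor 1. Companion genes past as lower numbered 0 to 6. The cause was not tested. The log2 fold change of Klrb1c was -0.22 to 0.41, reversed without saline tumor 2 (-0.22) and mAb-DXd/IMQ tumor 2 (-0.09), and that of Klre1 was -0.01 to 0.46, reversed without mAb-DXd/IMQ tumor 4 (-0.01).

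Fold changes of the 10 NK genes kept their direction and their side of the thresholds in 98 of 109 values from other settings and in 71 of 80 with a tumor left out. For other named genes this held for 265 of 295 and 175 of 216. Counts were low for Klrb1c, Klrc3, Klrg1 and Sh2d1b2, and the part of this in their standard errors was not tested.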
